A study of Mus musculus with 38 samples.

Results

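Fragments of the tRNAs that carry leucine and isoleucine were followed in mouse sperm. The small RNA counts list tRNA reads by isoacceptor, that is, by amino acid and anticodon, and 54 isoacceptors had reads. The names beginning with tRNA-Leu or tRNA-Ile gave 7 members with usable counts, 5 for leucine (tRNA-Leu-AAG, tRNA-Leu-CAA, tRNA-Leu-CAG, tRNA-Leu-TAA and tRNA-Leu-TAG) and 2 for isoleucine (tRNA-Ile-AAT and tRNA-Ile-TAT). An 8th row of that name, tRNA-Ile-GAT, held 1 read in 1 mouse and was not followed. The sperm came from 38 male C57BL6/J mice. Dams were kept on a control diet (CT, 20% protein) or a protein restricted diet (PR, 8% protein) from conception to weaning at 21 days, and sons of each dam received CT or PR food from then until death at 11 to 13 weeks. Groups are named by the diet before and then after weaning: CTCT (10 mice), CTPR (9 mice), PRCT (9 mice) and PRPR (10 mice). Many mice had a littermate in the sister group of the same dam diet, so mice are not all independent. Each library holds RNA pooled from the sperm cells of 1 mouse, in which fewer cells of a type and less RNA per cell cannot be told apart.

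Transfer RNAs bring amino acids to the ribosome, and each ends in the bases CCA, which are added after transcription and carry the amino acid. When tRNAs are cut near the anticodon, 5′ and 3′ fragments arise, and sperm is known for an abundance of 5′ fragments that are taken up or formed during passage through the epididymis. Leucine and isoleucine, with valine, are the branched-chain amino acids. The tRNAs for leucine and serine share a long variable arm that the tRNAs for isoleucine and valine lack.

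RefSeq lists 430 tRNA genes in GRCm38.p6, the build also called mm10, of which 41 belong to the 7 members. They comprised 15 genes for tRNA-Ile-AAT, 10 for tRNA-Leu-CAG, 5 for tRNA-Leu-AAG, 4 for tRNA-Leu-CAA, 3 each for tRNA-Leu-TAA and tRNA-Leu-TAG, and 1 for tRNA-Ile-TAT. The genes lay on 13 chromosomes, and 15 of the 41 lay between positions 21170036 and 23453514 of chromosome 13. Against the GENCODE annotation, 33 genes were intergenic, 6 lay in an intron and 2 overlapped an exon of another gene. The 4 genes for tRNA-Leu-CAA spanned 105 to 107 bases, whereas those for the other leucine tRNAs spanned 82 or 83 bases. Genes for tRNA-Leu-CAA and tRNA-Ile-TAT are known to hold an intron that is spliced out of the precursor. A read of an isoacceptor cannot be assigned to 1 of its near-identical gene copies, so the counts are sums over copies.

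The 1 tRNA-Ile-TAT gene listed is the member whose reads can also be listed under another name, because RefSeq places the microRNA gene Mir1983 over it. Both sequences are shown, from RefSeq on the minus strand of GRCm38.p6, with the 13 bases they share in capitals at the 3′ end of the tRNA gene. The tRNA gene spans chr13:21896938-21897031 and the mature microRNA chr13:21896930-21896950. The Mir1983 hairpin spans chr13:21896918-21897049 and so covers the whole tRNA gene. The counts do not tell which part of the hairpin the mir-1983 reads came from.
tRNA-Ile-TAT gene n-TItat14: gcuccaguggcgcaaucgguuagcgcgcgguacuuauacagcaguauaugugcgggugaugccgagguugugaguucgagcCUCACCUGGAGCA
mmu-miR-1983: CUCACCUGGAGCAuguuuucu
The microRNA list held 1215 reads of mir-1983 over all mice, against 685 reads of tRNA-Ile-TAT, and mir-1983 had more reads in 30 of 38 mice. Its level, in reads per 1000000 genome reads, ran from 0 to 8.41 with a median of 3.22 in CTCT mice and from 0.435 to 18.2 with a median of 8.76 in CTPR mice. The ranges overlapped, and no test was made because this microRNA was singled out after its values were seen. No reads were moved between the lists.

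Libraries held 4465281 to 7612603 reads that matched the genome, and levels are given as reads per 1000000 of these (RPM). All tRNA reads together made up 9.57% ± 4.08 (SD, n = 10) of genome reads in CTCT, 15.9% ± 5.98 (n = 9) in CTPR, 12.2% ± 6.69 (n = 9) in PRCT and 11.7% ± 4.32 (n = 10) in PRPR. The 7 members were a small part of this: together they averaged 461 RPM, or 0.405% ± 0.127 (SD, n = 38) of tRNA reads, whereas the most abundant isoacceptor, tRNA-Gly-GCC, averaged 65877 RPM. The libraries also held microRNAs listed as markers of other cell types, which does not by itself show that such cells were present. The study reported high sperm purity, judged in part by methylation at imprinting control regions. Lists of 3 germ line, 5 epithelial, 7 muscle and stroma and 3 blood microRNAs were all detected, and no listed microRNA was at 0 in every mouse. The summed muscle and stroma list ran from 63.5 to 3277 RPM with a median of 1549 in CTCT and from 71.6 to 8576 RPM with a median of 2606 in CTPR. The epithelial list had medians of 526 and 1044 RPM in the same groups, the germ line list 314 and 773 RPM, and the blood list 7.32 and 7.24 RPM. Whether other cells had a part in the results below was not tested.

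Over all mice, tRNA-Leu-AAG (129 RPM) and tRNA-Leu-TAG (112 RPM) were the most abundant members, at ranks 20 and 21 of the 54 isoacceptors. They were followed by tRNA-Leu-CAA (72.7 RPM), tRNA-Leu-CAG (63.6 RPM) and tRNA-Leu-TAA (58.2 RPM) at ranks 26, 28 and 29, and by tRNA-Ile-AAT (22.7 RPM) and tRNA-Ile-TAT (2.80 RPM) at ranks 44 and 47. The middle of this order was loose. tRNA-Leu-AAG exceeded tRNA-Leu-TAG in 28 of 38 mice, tRNA-Leu-CAA exceeded tRNA-Leu-CAG in 24, and tRNA-Leu-CAG exceeded tRNA-Leu-TAA in 18, with mean differences no larger than their SD in each of these pairs. The other steps were firm: tRNA-Leu-TAG exceeded tRNA-Leu-CAA in 36 mice, and both tRNA-Leu-TAA over tRNA-Ile-AAT and tRNA-Ile-AAT over tRNA-Ile-TAT held in all 38. These levels follow reads and not molecules, and their order was not that of gene copy number, with the most genes listed for tRNA-Ile-AAT, the member with the second lowest level.

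**Figure D1:**
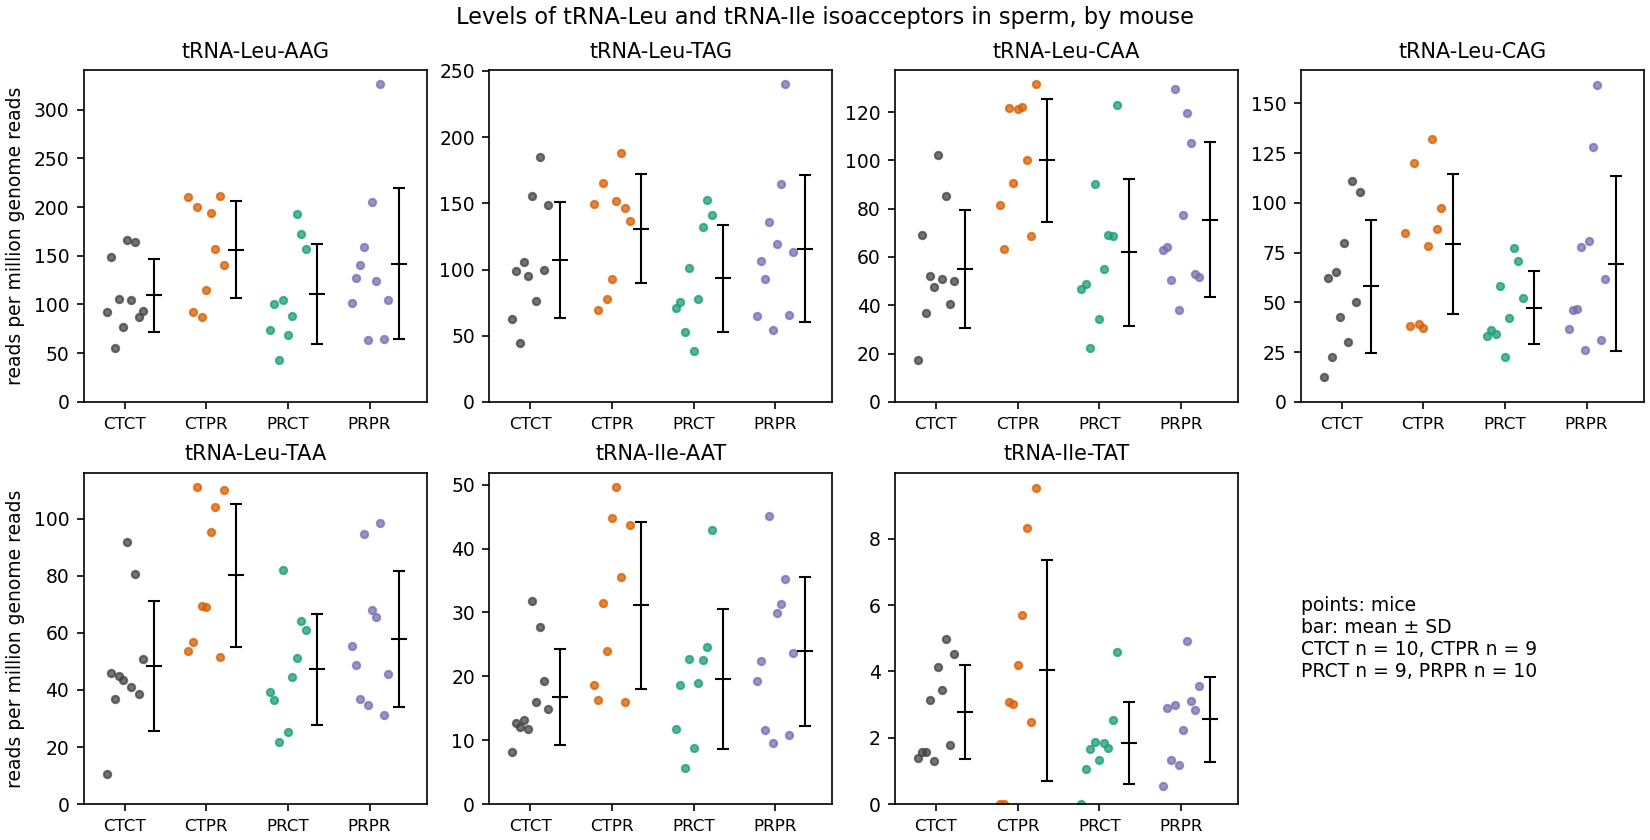
Each point is 1 mouse, in RPM on a linear axis from 0, with the mean ± SD beside each group. In CTPR the values of tRNA-Leu-CAA, tRNA-Leu-TAA and tRNA-Ile-AAT all lie above the CTCT median, yet the ranges of both groups overlap for every member.

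The comparison of CTPR with CTCT asks what restriction after weaning did in sons of control dams. All 7 members had a higher mean level in CTPR per genome reads, a direction that turned for 4 of them under the TMM scaling described below, and the fitted difference was largest for tRNA-Ile-AAT, tRNA-Leu-CAA and tRNA-Leu-TAA. None passed the adjusted test (edgeR's quasi-likelihood test, Benjamini-Hochberg over 54 isoacceptors, 0 of 7 members and 0 of 54 isoacceptors, or 0%). At an unadjusted P under 0.05, 3 of 7 members were called, against 19 of 54 isoacceptors, or 35.2%, so the members' share was near that of all tRNAs. DESeq2 likewise gave 0 of 7 adjusted and the same 3 members unadjusted. The median log2 difference was 0.56 over the members and 0.71 over the 54 isoacceptors, of which 51 were positive.

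Among the leucine tRNAs, tRNA-Leu-CAA, transcribed from intron-bearing genes, had the lowest P. Its level ran from 17.2 to 102 RPM with a median of 50.4 in CTCT and from 63.1 to 132 RPM with a median of 99.9 in CTPR. All 9 CTPR mice lay above the CTCT median and 4 lay above the highest CTCT mouse. The log2 difference was 0.87 ± 0.29 (SE), with P = 0.00458 and an adjusted P = 0.0715 in edgeR. tRNA-Leu-TAA, which reads the UUA codon, ran from 10.5 to 91.8 RPM (median 44.2) in CTCT and from 51.4 to 111 RPM (median 69.4) in CTPR. Again all 9 CTPR mice exceeded the CTCT median, and 4 exceeded the highest CTCT mouse. The log2 difference was 0.73 ± 0.29, with P = 0.0149 and an adjusted P = 0.0715 in edgeR.

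The other leucine tRNAs overlapped more between the groups. tRNA-Leu-AAG ran from 55.2 to 166 RPM (median 98.8) in CTCT and from 87.1 to 211 RPM (median 157) in CTPR, and its log2 difference was 0.52 ± 0.29 (adjusted P = 0.170 in edgeR). tRNA-Leu-CAG, which reads CUG, the commonest leucine codon of mammals, ran from 12.5 to 111 RPM (median 56.2) in CTCT and from 37.2 to 132 RPM (median 84.8) in CTPR, with a log2 difference of 0.45 ± 0.35 (adjusted P = 0.285). tRNA-Leu-TAG ran from 44.3 to 185 RPM (median 99.3) in CTCT and from 69.4 to 188 RPM (median 146) in CTPR, with a log2 difference of 0.29 ± 0.29 (adjusted P = 0.398). Of these 3, tRNA-Leu-AAG had 7 CTPR mice above the CTCT median and the other two had 6 each. For tRNA-Leu-AAG and tRNA-Leu-CAG an interval of 2 SE around the difference holds both 0 and the 0.87 of tRNA-Leu-CAA.

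For isoleucine, tRNA-Ile-AAT, which serves most isoleucine codons, ran from 8.21 to 31.8 RPM (median 14.0) in CTCT and from 15.96 to 49.7 RPM (median 31.4) in CTPR. All 9 CTPR mice exceeded the CTCT median and 4 exceeded the highest CTCT mouse. The log2 difference was 0.90 ± 0.33, with P = 0.00854 and an adjusted P = 0.0715 in edgeR. tRNA-Ile-TAT, the minor isoacceptor that reads AUA, had 0 to 65 reads per mouse. It ran from 1.31 to 4.99 RPM (median 2.46) in CTCT and from 0 to 9.52 RPM (median 3.07) in CTPR, and its log2 difference was 0.56 ± 0.41 (adjusted P = 0.279 in edgeR). Both of the CTPR mice without a read and 1 PRCT mouse without a read allowed levels of up to 0.474 to 0.653 RPM (3 reads, counting error only).

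The adjusted calls depended on single mice. Leaving out CTPR mouse 09H5 or CTCT mouse 45L3 brought tRNA-Ile-AAT, tRNA-Leu-CAA and tRNA-Leu-TAA under an adjusted P of 0.05 in edgeR (lowest adjusted P 0.0320 and 0.0346), and leaving out CTCT mouse 47I1 did so for tRNA-Ile-AAT and tRNA-Leu-CAA (0.0452). In these 3 fits 14, 17 and 15 of 54 isoacceptors were called. The lowest adjusted P of a member ranged from 0.0320 to 0.331 over the 28 alternative fits. Leaving out CTPR mouse 35F1 took tRNA-Leu-TAA to an unadjusted P of 0.0604.

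The directions also depended on the scale. Under TMM scaling, which sets the typical isoacceptor to no difference, the median over 54 isoacceptors moved from 0.71 to 0.01. On that scale the differences of tRNA-Leu-CAA (0.17), tRNA-Ile-AAT (0.12) and tRNA-Leu-TAA (0.03) were positive, and those of tRNA-Leu-CAG (-0.25), tRNA-Ile-TAT (-0.28), tRNA-Leu-AAG (-0.29) and tRNA-Leu-TAG (-0.47) were negative. Only tRNA-Leu-TAG among the members had an unadjusted P under 0.05 on that scale (0.0123, edgeR), in the opposite direction to its level. Over all isoacceptors 4 of 54 were called on that scale, all lower, and 0 passed adjustment.

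**Figure D2:**
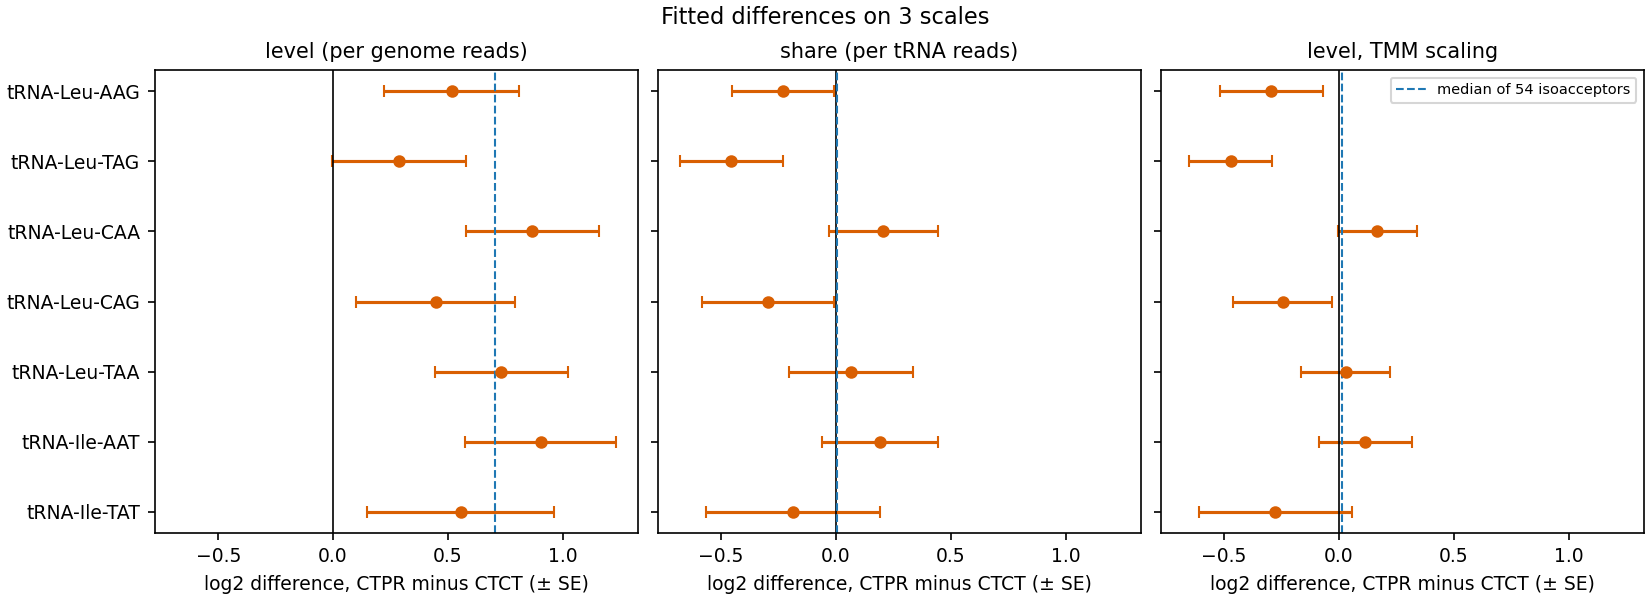
Points are fitted log2 differences of CTPR minus CTCT with bars of ± 1 SE, and the dashed line is the median of the 54 isoacceptors. The members lie to the right of 0 per genome reads, and on both other scales tRNA-Leu-AAG, tRNA-Leu-TAG, tRNA-Leu-CAG and tRNA-Ile-TAT lie to the left of 0.

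The share of tRNA reads taken by each member asks whether the members kept pace with other tRNA fragments. tRNA-Leu-TAG took a smaller share in CTPR and in PRCT than in CTCT at an unadjusted P under 0.05, and tRNA-Ile-TAT did so in PRCT. No member's share passed the adjusted test in any comparison (edgeR, summed tRNA reads as library size). The share of tRNA-Leu-TAG was also lower in PRPR than in CTCT, by -0.31 ± 0.22 on the log2 scale (P = 0.159 in edgeR). There 8 of 10 PRPR mice lay under the CTCT median, and 0 of 7 members and 0 of 54 isoacceptors were called without adjustment. In CTCT the share of tRNA-Leu-TAG ran from 0.0611 to 0.233% of tRNA reads with a median of 0.111%, and in CTPR from 0.0582 to 0.147% with a median of 0.0786%. The groups overlapped, with 7 of 9 CTPR mice under the CTCT median. The log2 difference was -0.46 ± 0.23 (P = 0.0495, adjusted P = 0.642 in edgeR), and 1 of 7 members was called without adjustment, against 2 of 54 isoacceptors, or 3.7%. This unadjusted call was lost when any of 10 of the 19 mice was left out, among them CTCT mouse 57P3, without which the difference was -0.30 (P = 0.168).

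Against the tRNA total, the other leucine tRNAs differed less between CTPR and CTCT. tRNA-Leu-AAG (-0.23 ± 0.22) and tRNA-Leu-CAG (-0.30 ± 0.29) had log2 differences in share below 0, and tRNA-Leu-CAA (0.21 ± 0.24) and tRNA-Leu-TAA (0.07 ± 0.27) above 0, the last turning to -0.03 with litter as a block and to -0.05 without mice 07C3, 35F2, 31A3 and 08G5. For isoleucine, the values were 0.19 ± 0.25 for tRNA-Ile-AAT and -0.19 ± 0.38 for tRNA-Ile-TAT. None of these had an unadjusted P under 0.05 in edgeR.

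In PRCT, restriction ended at weaning and the question is what a PR dam alone left behind. All 7 members had a log2 difference in share below 0 against CTCT, with a median of -0.35, but so did most other tRNAs: 10 of 54 were positive and the median over all was -0.33. tRNA-Leu-TAG ran from 0.0489 to 0.149% of tRNA reads (median 0.0806%) in PRCT, and 8 of 9 mice lay under the CTCT median of 0.111%. Its log2 difference was -0.53 ± 0.23 (P = 0.0252, adjusted P = 0.183 in edgeR). tRNA-Ile-TAT, with 0 to 35 reads per PRCT mouse, had a log2 difference of -0.99 ± 0.43 (P = 0.0262, adjusted P = 0.183). Thus 2 of 7 members were called without adjustment, against 8 of 54 isoacceptors, or 14.8%. Both calls were lost without CTCT mouse 57P3 (P = 0.0925 and 0.0693), and that of tRNA-Leu-TAG also without PRCT mouse 31A3 or 59L1. On the level scale no member differed between PRCT and CTCT at an unadjusted P under 0.05 (1 of 54 isoacceptors did, or 1.85%), and the members' log2 differences ran from -0.55 for tRNA-Ile-TAT to 0.25 for tRNA-Ile-AAT.

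Mice restricted throughout life (PRPR) were compared with the same CTCT mice. Against these, 0 of 7 members and 0 of 54 isoacceptors (0%) had an unadjusted P under 0.05 on the level scale in edgeR, and DESeq2 called no member either. The largest difference was again that of tRNA-Ile-AAT, 0.51 ± 0.33 (P = 0.133, adjusted P = 0.876 in edgeR), followed by tRNA-Leu-CAA, 0.46 ± 0.29 (P = 0.120), and the one member with a lower fitted level was tRNA-Ile-TAT (-0.14). tRNA-Leu-CAA ran from 38.2 to 130 RPM with a median of 63.5 in PRPR, and 9 of 10 mice lay above the CTCT median. PRPR was not tested against CTPR. tRNA-Ile-AAT ran from 9.62 to 45.1 RPM with a median of 23.0. Without CTCT mouse 45L3, 1 member had an unadjusted P under 0.05, and the count over all 54 isoacceptors in that fit is not given here. All comparisons with CTCT share those 10 control mice.

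Between PRPR and PRCT, both raised by PR dams, post-weaning restriction was compared again. All 7 members had a positive log2 difference in level, from 0.26 to 0.55, as did 41 of all 54 isoacceptors (median 0.155 over the 54). Of the members, 0 of 7 (0 of 54 isoacceptors, or 0%) had an unadjusted P under 0.05 in edgeR. The largest was tRNA-Leu-CAG, 0.55 ± 0.36 (P = 0.130), which ran from 22.5 to 77.1 RPM (median 42.03) in PRCT and from 26.2 to 159 RPM (median 54.2) in PRPR. Shares were positive for all 7 members and for 43 of all 54 isoacceptors, with a median of 0.28 against 0.22 for all 54. Whether the effect of post-weaning restriction differed by the dam's diet was tested as an interaction, and 0 of 7 members passed on the level scale without adjustment (2 of 54 isoacceptors, or 3.7%). On the share scale tRNA-Leu-TAG had an interaction of -0.67 ± 0.32 (P = 0.0420, adjusted P = 0.645 in edgeR), the only call among the 7 members, against 3 of 54 isoacceptors, or 5.56%. With litter as a block, a fit chosen after seeing the data, the interaction was -0.61 ± 0.24 for tRNA-Leu-TAG (P = 0.0175), -0.61 ± 0.25 for tRNA-Leu-CAG (P = 0.0249) and -0.51 ± 0.22 for tRNA-Leu-AAG (P = 0.0310), each with an adjusted P = 0.209 in edgeR. That made 3 of 7 members without adjustment, against 9 of 54 isoacceptors, or 16.7%, and 0 of 54 with it. In level the blocked interaction had 0 of 7, against 1 of 54, or 1.85%.

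Littermates gave a closer comparison, since 8 CT litters and 9 PR litters held a mouse of each post-weaning diet. In CT litters the restricted brother had the higher level of tRNA-Leu-CAA and of tRNA-Leu-TAA in 7 of 8, of tRNA-Leu-AAG, tRNA-Leu-CAG, tRNA-Leu-TAG and tRNA-Ile-AAT in 6 of 8, and of tRNA-Ile-TAT in 4 of 8. On the log2(RPM + 1) scale the median difference was 0.76 for tRNA-Leu-CAA and 0.51 for tRNA-Leu-TAA. Litter 45L went the other way for all 7 members, from 166 RPM in the CTCT brother to 87.1 RPM in the CTPR brother for tRNA-Leu-AAG. All tRNA reads of that litter also went from 16.4% of genome reads in the CTCT brother to 11.2% in the CTPR brother. As a share of tRNA reads, tRNA-Leu-AAG, tRNA-Leu-CAG and tRNA-Leu-TAG were each higher in the restricted brother in 1 of 8 litters, whereas tRNA-Leu-CAA was higher in 5 and tRNA-Leu-TAA in 4. In PR litters the restricted brother had the higher level in 6 to 8 of 9 litters for each member, with medians from 0.18 for tRNA-Ile-TAT to 0.62 for tRNA-Ile-AAT, and litter 51O had the lowest difference for 5 of the 7.

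**Figure D3:**
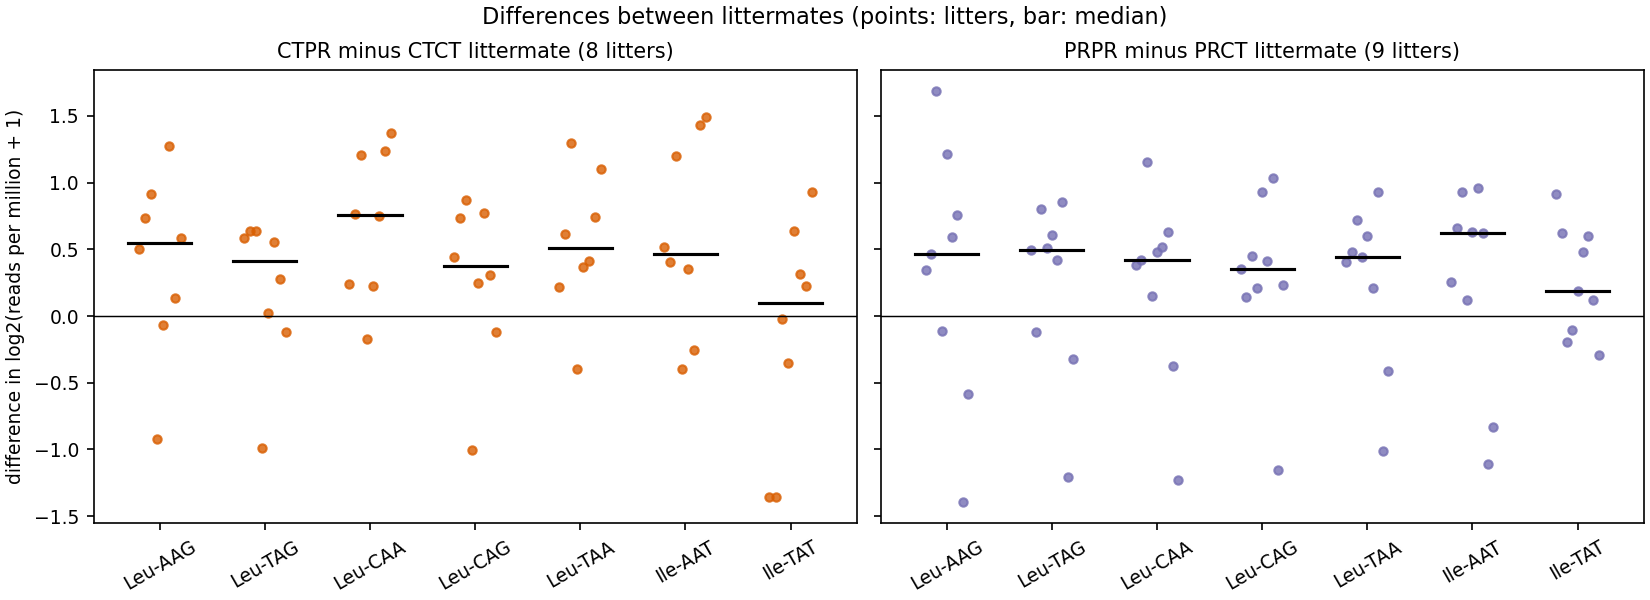
Each point is 1 litter, as the restricted brother minus the control brother in log2(RPM + 1), and the bar is the median over litters. Most points lie above 0 for the leucine tRNAs in both panels, with single litters, 45L on the left and mostly 51O on the right, below -0.9 for several members.

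The members differed in how many 5′ end reads were listed per 100 reads of their isoacceptor row. Over all tRNAs, the 5′ end lists summed to 85.2 ± 2.37 (SD, n = 38) reads per 100 isoacceptor reads. Among the members the ratio of 5′ end reads to 100 reads of the isoacceptor was 103 ± 14.1 for tRNA-Leu-AAG, 48.8 ± 13.5 for tRNA-Leu-CAG, 39.9 ± 7.27 for tRNA-Leu-TAG, 28.1 ± 7.24 for tRNA-Leu-TAA, 19.7 ± 8.36 for tRNA-Ile-AAT and 7.30 ± 3.73 for tRNA-Leu-CAA. tRNA-Ile-TAT had a 5′ end read in 1 of 38 mice. End lists are not contained in the isoacceptor rows: in some mouse the end list exceeded the row for 7 of 49 isoacceptors with a 5′ list, 1 of 46 with a 3′ list and 7 of 36 with a CCA list. The value can therefore pass 100, and in pooled reads it was 876 for tRNA-Gly-CCC beside 9.26 for tRNA-Gly-GCC. The ratio thus compares mice rather than giving a share or the position of reads along the tRNA. In pooled reads only tRNA-Leu-AAG of the members lay above the 85.2 of all tRNAs. The 3 members with an unadjusted P under 0.05 for the level in CTPR were also the 3 with the lowest 5′ ratio among the 6 whose ratio could be fitted. tRNA-Ile-TAT, left out of that fit, had a still lower mean ratio (0.0952) and was not called in level (P = 0.176, edgeR). Over 42 isoacceptors the 5′ ratio and the log2 difference in level had a Spearman's rho of -0.45 and a Pearson's r of -0.22. This is a description over features that share libraries, in which the isoacceptor reads enter both the ratio and the level. Because the ratio gives no share, neither this correlation nor the order of the members tells which fragments differed.

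Against CTCT, the 5′ ratio of tRNA-Leu-AAG had an unadjusted P under 0.05 in CTPR and in PRPR, and a P just above it in PRCT. It ran from 91.8 to 146 with a median of 111 in CTCT, from 87.7 to 113 with a median of 95.2 in CTPR, and from 85.9 to 119 with a median of 101 in PRPR. The ranges overlapped in each case, and 7 of 10 CTCT mice but 1 of 9 CTPR mice exceeded 100. The log2 difference was -0.24 ± 0.08 in CTPR (P = 0.00612, adjusted P = 0.171, limma) and -0.19 ± 0.08 in PRPR (P = 0.0195, adjusted P = 0.461), beside -0.16 ± 0.08 in PRCT (P = 0.0503). For tRNA-Leu-TAA the ratio averaged 31.7 ± 9.31 in CTCT and 24.5 ± 6.42 in CTPR, a log2 difference of -0.36 ± 0.17 (P = 0.0462, adjusted P = 0.242). Thus 2 of the 6 members fitted were called without adjustment in CTPR and 0 with it, against 8 of 42 isoacceptors, or 19.0%, without it and 0% with it. In PRPR it was 1 of 6, against 3 of 42, or 7.14%, and in PRCT 0 of 6, against 5 of 42, or 11.9%. The median log2 difference over the 42 isoacceptors was -0.23 in CTPR, -0.07 in PRPR and -0.16 in PRCT. Of the 42, 11 were positive in CTPR, 13 in PRPR and 13 in PRCT. The differences of tRNA-Leu-AAG in CTPR and PRCT were thus near those of all isoacceptors.

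**Figure D4:**
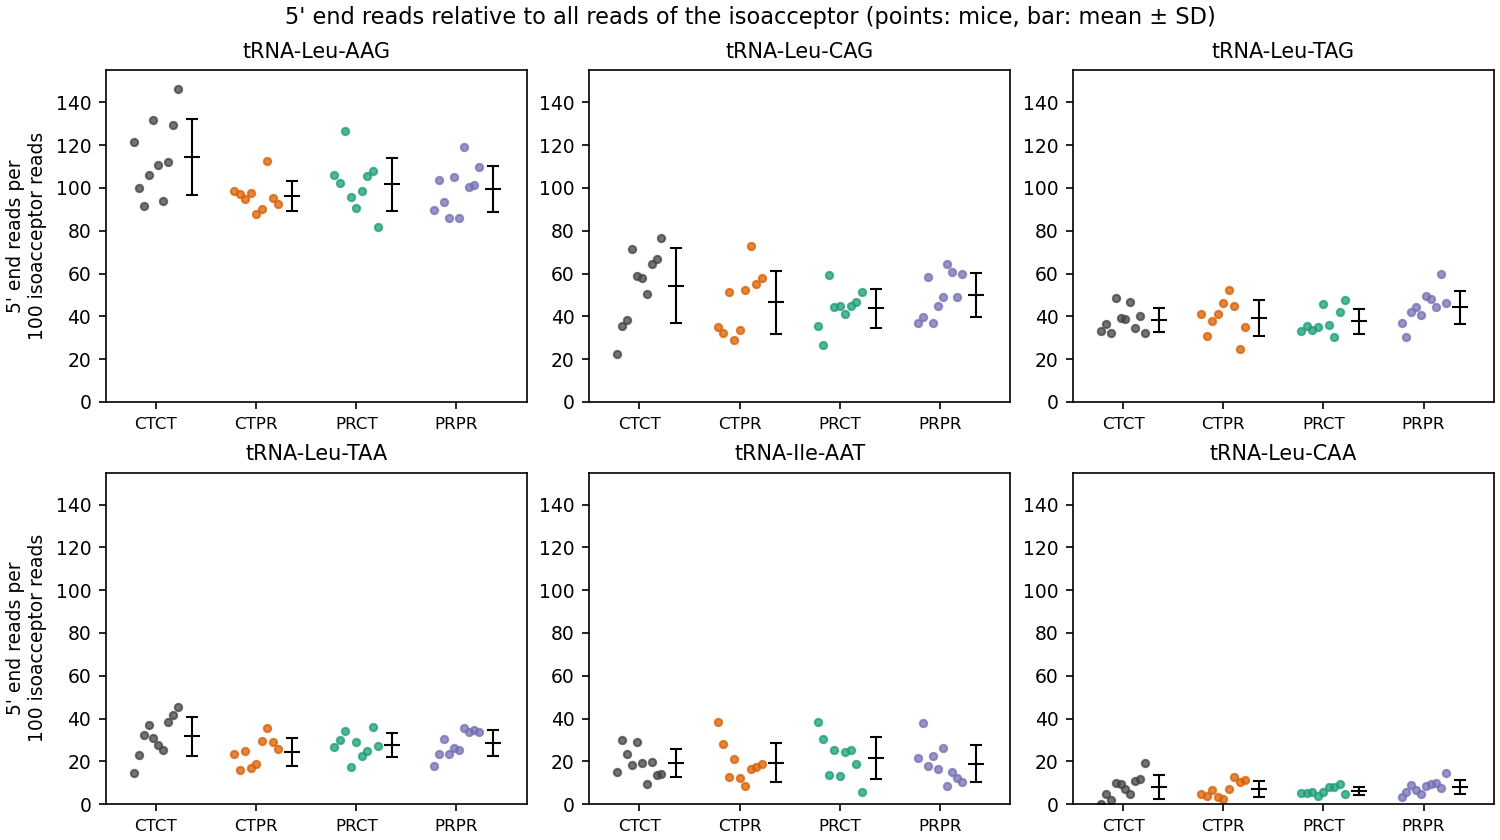
Each point is 1 mouse, as 5′ end reads per 100 reads of the isoacceptor on a common linear axis, with the mean ± SD of each group. tRNA-Leu-AAG sits near 100 and tRNA-Leu-CAA near 7, and the groups overlap in every panel.

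The 3′ and CCA end lists also differed between the members. The CCA end list of tRNA-Ile-AAT averaged 61.5 RPM, against 4.21 RPM for the 5′ end list and 0.160 RPM for the 3′ end list. That CCA list exceeded the 22.7 RPM of the isoacceptor row itself, so the row that gives this member's level, rank and 5′ ratio does not hold all of its CCA end reads. tRNA-Leu-CAA had 15.0 RPM in its 3′ end list, 13.7 RPM in its CCA end list and 5.40 RPM in its 5′ end list, beside 72.7 RPM in its isoacceptor row. tRNA-Leu-TAG had 45.0 RPM in its 5′ and 1.01 RPM in its 3′ end list, beside 112 RPM in its row. The end lists of these members fall short of the row, so a low 5′ ratio does not mean that the other reads were 3′ or CCA ends. For tRNA-Leu-TAG no CCA end matching the genome was listed, and for tRNA-Leu-AAG the CCA end averaged 3.48 RPM beside 131 RPM at the 5′ end. The 3′ end class of tRNA-Ile-TAT had reads in 5 of 38 mice.

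When the 27 rows of the members, 20 of them end lists, were fitted with all 185 rows, 7 of 27 had an unadjusted P under 0.05 in CTPR against CTCT and 0 passed adjustment, against 45 of 185, or 24.3%, and 0% (edgeR). Besides the isoacceptor rows already described, these were 4 end lists, all of tRNA-Ile-AAT or tRNA-Leu-CAA. The CCA end of tRNA-Ile-AAT ran from 4.80 to 90.2 RPM with a median of 38.9 in CTCT and from 39.4 to 154 RPM with a median of 99.3 in CTPR. The ranges overlapped, though the lowest CTPR mouse lay above the CTCT median. Its log2 difference was 1.11 ± 0.35 (P = 0.00280, adjusted P = 0.158 in edgeR). The 3′ end of tRNA-Leu-CAA had a difference of 0.97 ± 0.42 (P = 0.0241, adjusted P = 0.165) and its CCA end 1.07 ± 0.51 (P = 0.0409, adjusted P = 0.185). The 3′ end of tRNA-Ile-AAT also had an unadjusted P under 0.05, but it was at 0 in 8 of 10 CTCT mice and 4 of 9 CTPR mice and averaged 0.352 RPM in CTPR. No 5′ end list of a member had an unadjusted P under 0.05 in CTPR. The log2 differences of the 5′ ends were 0.28 for tRNA-Leu-AAG, 0.21 for tRNA-Leu-CAG, 0.35 for tRNA-Leu-TAG, 0.34 for tRNA-Leu-TAA, 0.60 for tRNA-Leu-CAA and 0.74 for tRNA-Ile-AAT. The difference between ends was not tested in this fit. In the other 4 contrasts, 0 of the 27 rows had an unadjusted P under 0.05, against 7 of 185 (3.78%) in PRCT against CTCT, 4 (2.16%) in PRPR against CTCT, 5 (2.7%) in PRPR against PRCT and 7 (3.78%) for the interaction.

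The members varied together across mice. Pearson's r of log2(RPM + 1) between pairs of members ran from 0.31 to 0.93 over 38 mice, with a median of 0.72, on libraries that share their depth and tRNA content. The highest were tRNA-Leu-CAA with tRNA-Leu-TAA (0.93), tRNA-Leu-CAG with tRNA-Leu-TAG (0.92) and tRNA-Leu-CAA with tRNA-Ile-AAT (0.91). Each member's level also followed the share of tRNA in the library, with r from 0.52 for tRNA-Ile-TAT to 0.80 for tRNA-Leu-AAG. As log2 shares of tRNA reads, which have a common denominator, r ran from 0.34 to 0.90 over 15 pairs with a median of 0.54, with 0.90 for tRNA-Leu-CAA with tRNA-Leu-TAA and 0.84 for tRNA-Leu-CAG with tRNA-Leu-TAG.

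Outside the families, the isoacceptors whose level was most like that of the summed leucine tRNAs were tRNA-Thr-TGT (r = 0.91), tRNA-Gln-TTG (0.88) and tRNA-Met-CAT (0.86), among 47 compared with a median of 0.76. For the summed isoleucine tRNAs they were tRNA-Lys-TTT (0.90), tRNA-Arg-CCT (0.90) and tRNA-Met-CAT (0.89), with a median of 0.70. As shares of tRNA reads, the closest to leucine were tRNA-Gln-TTG (0.77), tRNA-SeC-TCA (0.76) and tRNA-Lys-CTT (0.71), and the closest to isoleucine tRNA-Asn-GTT (0.79), tRNA-Lys-TTT (0.76) and tRNA-Met-CAT (0.74). The dominant tRNA-Gly-GCC was last of the 38 isoacceptors compared for the leucine share (r = -0.59), and a share of a total that is mostly tRNA-Gly-GCC is pushed towards a negative r with it.

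The valine and serine tRNAs, for the third branched-chain acid and another family with a long variable arm, served as context. In CTPR against CTCT, 0 of 3 valine and 1 of 5 serine isoacceptors had a higher level at an unadjusted P under 0.05, against 19 of 54 isoacceptors (35.2%), and 0 of either passed adjustment in any comparison (edgeR). The median log2 difference in level was 0.47 for valine and 0.59 for serine, beside 0.56 for the 7 leucine and isoleucine members and 0.71 for all 54. As shares in PRCT, 1 of 3 valine and 1 of 5 serine isoacceptors were lower without adjustment, against 8 of 54 isoacceptors (14.8%), with medians of -0.42 and -0.41.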

How the data were processed

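Small RNA libraries from the sperm of 38 mice were analysed, 1 per mouse. The authors ran SPORTS 1.0 on the reads, against mm10 and databases of small RNA classes, and deposited raw read counts per class and class member for each mouse. Database versions and aligner settings are not given in the sources used here. Isoacceptor rows were used as deposited for the level. Class totals without the end lists came close to the genome reads in all mice but 35F2, 31A3 and 08G5, and an alternative left these and 07C3 out. End lists exceeded their isoacceptor row in some mouse (for 7 of 49 isoacceptors with a 5′ list, 1 of 46 with a 3′ list and 7 of 36 with a CCA list), so the intended 5′ share became log2 of 5′ over isoacceptor reads, each with 0.5 added, tested with limma 3.58.1. Groups came from the labels, which for mice 47I1 and 47I2 are the reverse of the study's mouse list.

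The 54 isoacceptors were fitted in edgeR 4.0.16 under R 4.3.3 (quasi-likelihood, glmQLFit without the legacy option, all 4 groups together), with genome reads (level) or summed tRNA reads (share) as library size, and P values were adjusted by Benjamini-Hochberg over all of them. Tests were checked on simulated data in which some isoacceptors were changed, by more than the differences of the members' rows here. That check does not give the power of the tests at the differences reported. DESeq2 1.42.0, TMM scaling, filters, litter as a block, the other grouping of litter 47I and leaving out mice were alternatives. Same-litter mice of sister groups deviated together (correlations 0.17 to 0.73 over 17 pairs), the litters being those of the study's mouse list. Python 3.11.15 with pandas 2.3.3 was used for the rest. With 4465281 to 7612603 genome reads per mouse, counting error of the isoacceptor rows is small except for tRNA-Ile-TAT. It is larger for end lists with few reads, such as the 5′ end list of tRNA-Leu-CAA (0 reads in mouse 07C3 and 5 in mouse 09H7). No duplicated libraries were found.

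All 7 members were named, with the 3 isoacceptors most correlated with each family sum, the most abundant isoacceptor, and the valine and serine lists. The members and lists were chosen with earlier results of these data known. mir-1983, the CCA ends not matching the genome and the litter-blocked interaction were added after seeing the data.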

Additional observations from a re-analysis of the deposited data

Results flagged for a closer look

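Among 56 checks of the highest and lowest mouse of each group, over level and share of the 7 members, 6 found a mouse far from the rest of its group. For independent and normally distributed values chance alone would give about 1 in 20. Shares have a common total and the members vary together, so 6 of 56 is not read as an excess over chance. All 6 were high shares of tRNA reads: CTCT mouse 09H7 for tRNA-Leu-CAA (0.134%, next 0.0784%), tRNA-Leu-TAA (0.134%, next 0.0797%) and tRNA-Ile-AAT (0.0438%, next 0.0233%), CTCT mouse 57P3 for tRNA-Leu-CAG (0.165%, next 0.0819%), CTPR mouse 09H5 for tRNA-Leu-AAG (0.196%, next 0.122%) and PRCT mouse 14A4 for tRNA-Leu-TAA (0.0825%, next 0.0526%). Mice 09H7 (2.75%), 09H5 (4.72%) and 14A4 (4.77%) had the lowest tRNA content of genome reads in their groups, and 57P3 had 6.38%. The part of tRNA content in these shares was not tested. No level in RPM stood out in this way.

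The effect of post-weaning restriction on the share of tRNA-Leu-TAG differed between dam diets before adjustment, by -0.67 on the log2 scale (P = 0.0420, adjusted P = 0.645, edgeR interaction), and leaving out any of 18 of the 38 mice took the unadjusted P above 0.05. With litter as a block it was -0.61 (P = 0.0175, adjusted P = 0.209).

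Reads with a CCA end that did not match the genome, which no comparison above uses, were higher in CTPR than in CTCT before adjustment for 3 of 7 members, against 8 of 45 rows, or 17.8% (edgeR, 37 mice, 0 rows after adjustment). The log2 differences were 1.10 for tRNA-Ile-AAT (P = 0.00241, adjusted P = 0.0542), 0.99 for tRNA-Leu-CAA (P = 0.0399, adjusted P = 0.216) and 0.95 for tRNA-Leu-CAG (P = 0.0210, adjusted P = 0.199). For tRNA-Ile-AAT the values ran from 3.72 to 68.1 RPM (median 29.0) in CTCT and from 29.9 to 120 RPM (median 76.7) in CTPR. 1 PRCT mouse whose class name was blank in this list was left out.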

How the results depend on the processing

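Counts of members at an unadjusted P under 0.05 are given, with the value first reported in brackets. In level, CTPR against CTCT gave 1 (3) under TMM. In share, CTPR against CTCT (1) gave 2 under TMM and 0 with litter 47I regrouped, without 4 mice (07C3, 35F2, 31A3 and 08G5, of which 07C3 has a full class total), and with those groups fitted alone without a block. PRCT against CTCT (2) gave 0 under TMM, against 3 of 54 isoacceptors. It gave 1 with a minimum of 10 reads (6 of 42), without those 4 mice (7 of 54) and with those groups alone (7 of 51). The interaction (1) gave 0 under TMM (0 of 54 isoacceptors), with 47I regrouped (4 of 54) and without the 4 mice (1 of 54). In 5′ ratio, CTPR (2) gave 1 with a minimum of 100 reads and with 47I regrouped. PRCT (0) gave 1 with 5 added (7 of 42 isoacceptors), with that minimum (5 of 26) and with 47I regrouped (8 of 42). Without the 4 mice PRPR against CTCT (1) gave 2 and PRPR against PRCT (0) gave 1. Leaving out 1 mouse gave 2 to 3 in level and 0 to 1 in share for CTPR, 0 to 3 in share for PRCT, 0 to 2 for the share interaction and 0 to 1 in level for PRPR against CTCT, and 0 in the other level and share comparisons. No count over all isoacceptors stands beside these single-mouse counts or the 5′ ratio counts of CTPR and PRPR. They are therefore not read as results about the members. Directions turned for the level under TMM in tRNA-Leu-AAG (-0.29), tRNA-Leu-CAG (-0.25), tRNA-Leu-TAG (-0.47) and tRNA-Ile-TAT (-0.28), and for the share of tRNA-Leu-TAA in CTPR without the 4 mice (-0.052), with the litter block (-0.032) and when single mice were left out (from -0.12 without CTPR mouse 09H5 to 0.27 without CTCT mouse 09H7, below 0 also without 07C3, 53M1 or 57P1). With the litter as a block the level of CTPR still gave 3 members (21 of 52 isoacceptors) and the share 1 (4 of 52). The share interaction gave 3 members (9 of 54) against 1 in a blocked fit chosen after seeing the data, and the block changed no other call. No paired analysis was possible for PRCT or PRPR against CTCT because no litter spans both dam diets. Over all 54 isoacceptors, the unadjusted level calls in CTPR numbered 4 under TMM, all lower, and 12 without the 4 mice, against 19, and share calls in CTPR numbered 0 to 5 against 2. Of 97 alternative counts that left out no single mouse, 77 were within 1.5 times the reported count. The causes were not tested. Depth limits tRNA-Ile-TAT, the 3′ ends and other end lists with few reads, and the spread between mice limits the rest.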
